A study of Homo sapiens with 20 samples.

Results

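Prexasertib alone was compared with its vehicle in IMR-32 cells, a human line grown from a neuroblastoma. The comparison took the 4 libraries of cells given 2 nM prexasertib for 24 h and the 4 libraries of cells given DMSO for 24 h, so 8 of the 20 libraries in the series, chosen by their labelled treatment and by no measured value. All 8 carry the label of an unmodified genotype and of 1 batch, and no agent other than DMSO or prexasertib was given. The low-count filter left 13729 of 58787 genes in the count table for testing. The other 12 libraries held Dyngo-4a at 1 µM, Dyngo-4a at 2.26 µM, or prexasertib with Dyngo-4a, each for 24 h with 4 libraries. The doses used in the combination were not given in the sources used here. The labels leave unsaid whether each replicate was its own culture. The p-values therefore measure only the spread between these libraries, which may be technical.

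Prexasertib inhibits the checkpoint kinase CHK1, which is encoded by CHEK1. CHK1 is switched on by ATR when replication forks stall, and it restrains the CDC25 phosphatases, holds back the firing of further origins and delays entry into mitosis. When it is inhibited, cells under replication stress fire too many origins and may enter mitosis with damaged DNA, and neuroblastoma cells with high MYCN are known for such stress. Dyngo-4a is an inhibitor of dynamin, the GTPase that pinches vesicles from membranes. The title of the series pairs CHK1 with MUS81, a nuclease that cuts stalled forks.

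Library totals in the 8 libraries ran from 3960885 to 6537843 counts, with 18122 to 19304 genes detected. A gene with 3 counts stood at 0.459 to 0.757 CPM (counts scaled to the library total) in these libraries, which limits what can be seen of low genes, for counting error only. Libraries of 1 group correlated with r of 0.975 to 0.981 across genes, and no pair of them differed as little as sampling noise would allow (chi-square per degree of freedom of 3.05 to 8.76). The first principal component of the 8 libraries held 23.0% of the variance and set replicates 1 and 3 apart from replicates 2 and 4 in both groups. Same-numbered DMSO and prexasertib libraries deviated together from their group means (r of 0.157 to 0.213, with all 4 above 0.1). Pairs with different numbers ran from -0.209 to 0.143, and DMSO replicate 4 with prexasertib replicate 2 was also above 0.1. Because of the same-numbered pairs, values with the replicate number as a block stand beside those without it. MALAT1 took 0.94% to 1.76% of counts with DMSO and 1.04% to 1.73% with prexasertib.

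The sympathetic neuroblast identity of the line was plain in both groups. The 22 identity genes summed to 8766 to 9612 CPM with DMSO and to 9239 to 9735 CPM with prexasertib, and 19 of them passed the filter. GATA3, a transcription factor of sympathetic neurons, stood at 1030 ± 71.6 CPM (SD, n = 4) with DMSO and 1108 ± 43.0 CPM (SD, n = 4) with prexasertib. Markers of mesenchymal cells summed to 619 to 775 CPM with DMSO and 616 to 753 CPM with prexasertib. The summed markers of Schwann cells, fibroblasts, immune cells, endothelium, epithelium and central glia were each at most 48.0 CPM in every library, and 9 of their 35 genes had no count in any of the 8.

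The transcript of the drug's target did not differ beyond the spread between libraries. CHEK1 was read at 32.9, 30.6, 37.3 and 27.5 CPM in DMSO replicates 1 to 4 and at 28.5, 35.0, 35.1 and 28.1 CPM in prexasertib replicates 1 to 4. The groups overlapped fully, and the log2 fold change was -0.02 ± 0.15 (SE). MUS81 gave -0.02 ± 0.11 (SE), and its partner subunit EME1 gave -0.21 ± 0.15 (SE). MYCN, the amplified oncogene of the line, was at 1735 ± 149 CPM (SD, n = 4) with DMSO and 1808 ± 150 CPM (SD, n = 4) with prexasertib, with a log2 fold change of 0.06 ± 0.09 (SE). None of these 4 genes passed the test with or without the block. An inhibitor acts on the kinase and not on its transcript, so these levels do not check the labels.

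Few genes were called at this dose. Of the 23 that were called with the replicate block, 6 are known targets of DNA damage signalling, 3 work in DNA replication and 1 in homologous recombination. The gene lists behind these roles were chosen with earlier results of these data known, so these counts are a description only. Without the block, edgeR's quasi-likelihood test called 0 of 13729 genes at a Benjamini-Hochberg adjusted p under 0.05 (a background of 0%). An unadjusted p under 0.05 was reached by 518 genes (3.77%), of which 246 were higher (1.79%) and 272 lower (1.98%) with prexasertib. With the replicate block, 23 genes were called (0.168%), of which 15 were higher (0.109%) and 8 lower (0.0583%). Libraries of the groups did not overlap for 203 genes that were higher (1.48%) and 201 that were lower (1.46%). Of all tested genes, 1086 were higher in 4 of 4 same-numbered pairs (7.91%) and 1152 lower in 4 of 4 (8.39%). Negative values made up 50.3% of all log2 fold changes without the block, and their median was -0.00078. The number called with the block moved with single libraries. It was 6, 9 and 9 without DMSO replicates 1, 3 and 4, and 4, 8 and 13 without prexasertib replicates 1, 2 and 3. It was 18 without DMSO replicate 2 and 21 without prexasertib replicate 4.

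**Figure D1:**
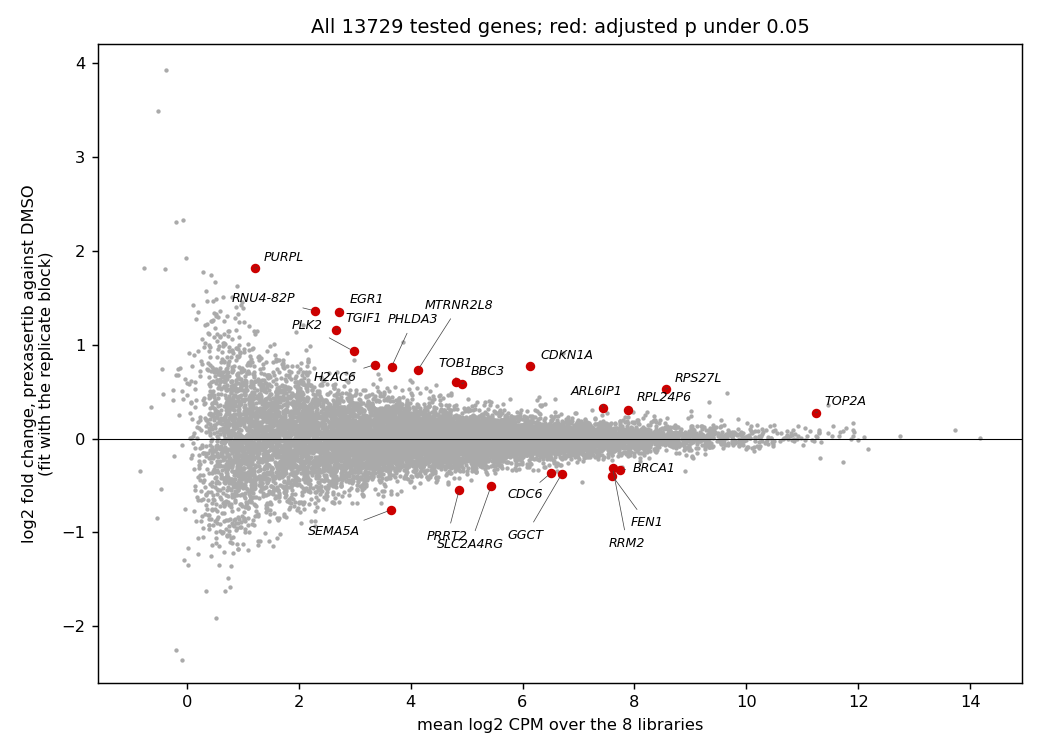
Log2 fold change between prexasertib and DMSO in the fit with the replicate block (vertical axis) against the mean log2 CPM over the 8 libraries (horizontal axis), 1 point for each of the 13729 tested genes. Red points are the 23 genes with an adjusted p under 0.05, of which 15 lie above 0 and 8 below; the gene marked MTRNR2L8 is ENSG00000255823.

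Genes that DNA damage signalling is known to induce in cell cycle arrest, cell death and repair were shifted upward as a list, and 6 of them rose with the replicate block. This list and the other gene lists were chosen with earlier results of these data known, so their counts and medians are a description only. Of the 33 on the list, 32 passed the low-count filter, which a gene could also pass through the Dyngo-4a or combination libraries. Log2 fold changes without the block were positive for 29 of the 32, against 49.7% of all tested genes, and their median was 0.29 against -0.00078 for all. An unadjusted p under 0.05 in the upward direction was reached by 12 of 32, against 1.79% of all tested genes. In the downward direction it was reached by 0, against 1.98% of all tested genes. Libraries did not overlap, with prexasertib higher, for 7 of the 32, against 1.48% of all tested genes. In 4 of 4 pairs 16 were higher, against 7.91% of all tested genes. With the block 6 of 32 were called higher, against 0.109% of all tested genes. The list's median was 0.32, 0.28, 0.33 and 0.24 in same-numbered pairs 1 to 4.

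CDKN1A encodes p21, the inhibitor of cyclin-dependent kinases that holds damaged cells in G1, and it lies on chromosome 6 (36676460 to 36687339, plus strand, GRCh38). Its level was 55.0, 55.9, 37.5 and 67.6 CPM in DMSO replicates 1 to 4 and 95.4, 87.8, 79.2 and 105 CPM in prexasertib replicates 1 to 4. Every prexasertib library lay above every DMSO library. With the block the log2 fold change was 0.77 ± 0.13 (SE; 1.71-fold; adjusted p = 0.0121), and without it 0.76 ± 0.19 (SE; adjusted p = 0.598). The call with the block was lost without DMSO replicate 1 or 2, with a highest adjusted p of 0.0812.

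RPS27L, a small ribosomal protein paralogue known to be induced by DNA damage, gave the smallest p of all tested genes with the block (chromosome 15, 63125872 to 63158021, minus strand). It stood at 292, 353, 285 and 330 CPM with DMSO and at 443, 456, 421 and 492 CPM with prexasertib, with no overlap. The log2 fold change was 0.53 ± 0.07 (SE; 1.44-fold; adjusted p = 1.76e-07) with the block and 0.53 ± 0.10 (SE; adjusted p = 0.0506) without it. RPS27L kept its call when any of the 8 libraries was left out of the blocked fit, with a highest adjusted p of 5.25e-05. Its close paralogue RPS27, which is not known for this response, had a log2 fold change of 0.08 ± 0.15 (SE).

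Death and arrest genes at lower levels rose as well with the block. BBC3, which encodes the BH3-only killer PUMA, was at 21.3, 30.6, 17.5 and 29.3 CPM with DMSO and 43.2, 43.8, 29.9 and 32.4 CPM with prexasertib. It was higher in 4 of 4 pairs, although the groups overlapped, with the third prexasertib library below the second DMSO library. Its log2 fold change with the block was 0.58 ± 0.12 (SE; adjusted p = 0.0178). PHLDA3, a repressor of AKT signalling, was at 7.61, 8.27, 7.66 and 14.6 CPM with DMSO and 16.6, 17.9, 14.3 and 17.1 CPM with prexasertib. The fourth DMSO library stood far above the other three and overlapped the treated group. PHLDA3 had a log2 fold change of 0.77 ± 0.17 (SE; adjusted p = 0.0162) with the block.

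PLK2, a polo-like kinase of the stress response, was at 3.62, 7.27, 5.64 and 5.76 CPM with DMSO and 12.5, 9.502, 8.91 and 10.97 CPM with prexasertib. Here the groups did not overlap, and the log2 fold change with the block was 0.93 ± 0.20 (SE; adjusted p = 0.0162). PURPL, a long noncoding RNA induced by DNA damage, was near the detection limit with DMSO at 1.33, 0.752, 0.403 and 1.60 CPM and reached 4.91, 3.91, 4.36 and 2.35 CPM with prexasertib. It had the largest log2 fold change of the 23 called genes, 1.81 ± 0.36 (SE; 3.51-fold; adjusted p = 0.00835) with the block. At 0.403 CPM the third DMSO library held fewer than 3 counts, so the size of this fold is poorly fixed.

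These 4 calls depended on single libraries. BBC3 lost its call without DMSO replicate 1 or 3 or prexasertib replicate 1 or 2 (highest adjusted p 0.212). PHLDA3 lost it without DMSO replicate 1, 2 or 3 or prexasertib replicate 1 or 2 (highest 0.235), and PLK2 without DMSO replicate 1, 3 or 4 or prexasertib replicate 1 or 2 (highest 0.287). PURPL lost it without DMSO replicate 1 or 3 or prexasertib replicate 1 (highest 0.106).

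Other members had positive values that did not pass the test. EDA2R, a death receptor, had a log2 fold change of 0.69 ± 0.19 (SE) without the block and an adjusted p of 0.0855 with it, and its groups did not overlap. GDF15, a secreted stress cytokine, was at 30.1 to 32.1 CPM with DMSO and 35.3 to 50.1 CPM with prexasertib, again without overlap (log2 fold change 0.40 ± 0.16, SE). SESN1, a brake on mTORC1, gave 0.57 ± 0.23 (SE), BAX, the pore-forming killer, 0.42 ± 0.19 (SE), and GADD45A, an arrest factor, 0.28 ± 0.11 (SE). The nucleotide excision repair genes XPC and DDB2 gave 0.11 and -0.15, and RRM2B, the damage-induced ribonucleotide reductase subunit, gave 0.05. Among 13 tested genes of the BCL2 family, BBC3 was the only one called with the block (0.109% of all tested genes in that direction). HRK, another BH3-only gene, gave 0.58 ± 0.26 (SE), and the guardians MCL1 and BCL2 gave -0.0044 and -0.21.

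**Figure D2:**
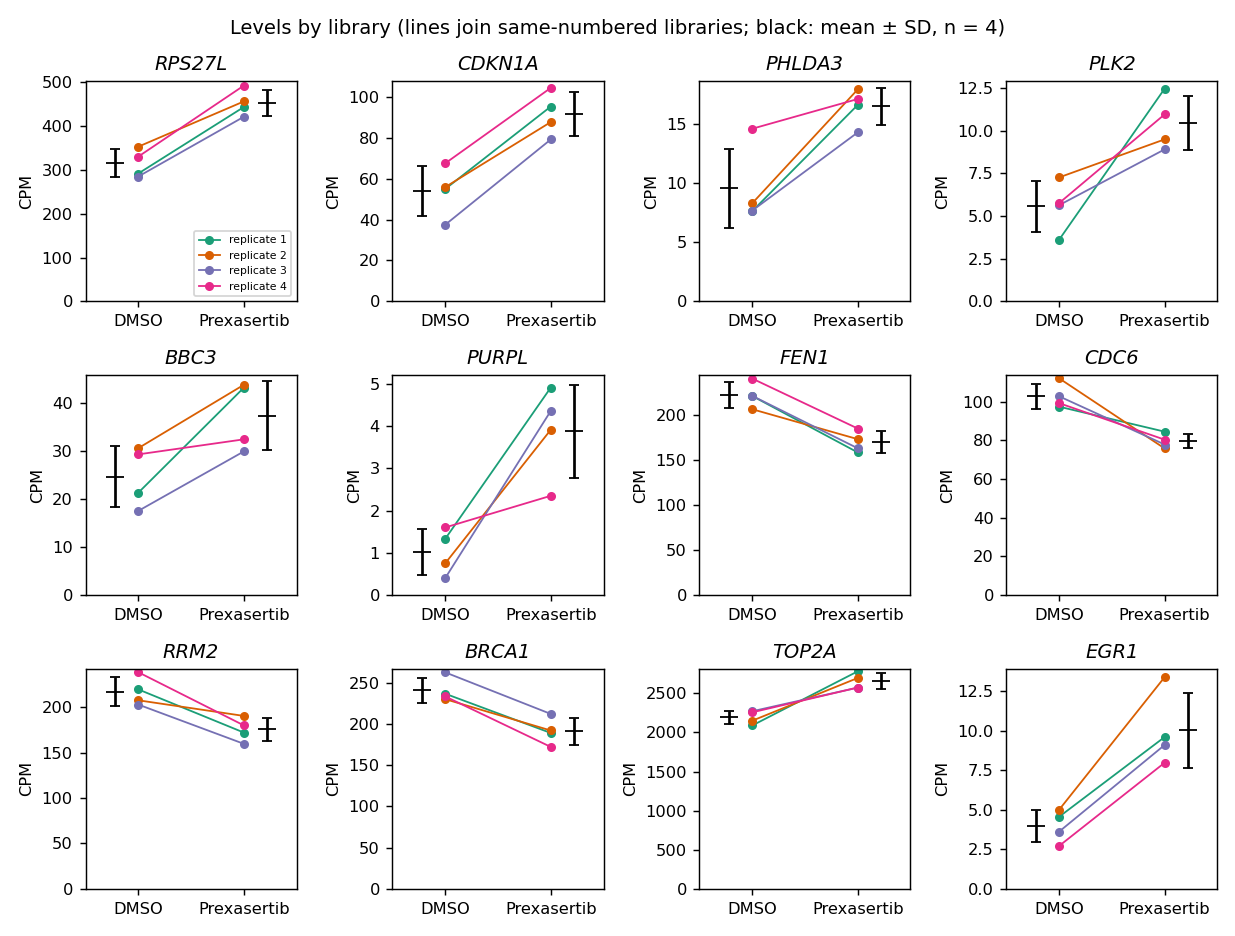
Levels in CPM (vertical axes, starting at 0) of 12 genes in the 4 DMSO and 4 prexasertib libraries; points are libraries, lines join libraries with the same replicate number, and black bars are the mean ± SD with n = 4. All 12 genes were called with the block, and each moved the same way in 4 of 4 pairs; PHLDA3 and BBC3 are the 2 whose groups overlap.

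DNA replication genes had negative values as a list, each small, and 3 of them fell with the replicate block. All 36 genes of the replication list passed the filter, and 36 of 36 had a negative log2 fold change, against 50.3% of all tested genes, with a median of -0.19 and a range of -0.39 to -0.05. Without the block 14 of 36 reached an unadjusted p under 0.05, all lower, against 1.98% of all tested genes. Libraries did not overlap, with prexasertib lower, for 11 of 36, against 1.46% of all tested genes. In 4 of 4 pairs 21 were lower, against 8.39% of all tested genes. With the block 3 of 36 fell past the adjusted threshold, against 0.0583% of all tested genes. They were FEN1, CDC6 and RRM2. The list's median was -0.22, -0.20, -0.14 and -0.20 in pairs 1 to 4. In these bulk libraries, fewer cells in S phase and less of these RNAs in each cell cannot be told apart.

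FEN1 is the flap endonuclease that trims Okazaki fragments (chromosome 11, 61792637 to 61797244, plus strand). It was read at 221, 206, 221 and 240 CPM with DMSO and at 158, 173, 163 and 185 CPM with prexasertib. Every treated library was below every vehicle library, and the log2 fold change was -0.39 ± 0.08 (SE; adjusted p = 0.00609) with the block. CDC6, which loads the MCM helicase onto origins, was at 97.4, 112, 103 and 99.3 CPM with DMSO and 84.5, 75.8, 77.9 and 80.4 CPM with prexasertib. Again no libraries overlapped, and CDC6 gave -0.37 ± 0.09 (SE; adjusted p = 0.0444). RRM2, the S phase subunit of ribonucleotide reductase, was at 220, 208, 203 and 238 CPM with DMSO and 172, 190, 160 and 180 CPM with prexasertib. Its groups stayed apart by a narrow margin, and its log2 fold change was -0.31 ± 0.07 (SE; adjusted p = 0.0397).

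FEN1 lost its call without DMSO replicate 1 or 4 or prexasertib replicate 1 or 2 (highest adjusted p 0.0861). RRM2 kept its call without DMSO replicate 2 alone (highest 0.254 without another library), and CDC6 without DMSO replicate 1 alone (highest 0.287). The call of CDC6 was also lost in the blocked fits with DESeq2 (adjusted p = 0.0643) and limma-voom (adjusted p = 0.0573).

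The values of the replication genes are given here by their place in the machinery. The licensing and helicase genes MCM6 and MCM10 had log2 fold changes of -0.24 ± 0.10 and -0.20 ± 0.08 (SE), CDC45 had -0.37 ± 0.12 (SE) and the helicase subunit GINS2 had -0.05 ± 0.14 (SE). Of the polymerase genes, POLD3 gave -0.30 ± 0.11 (SE) and POLA1 gave -0.29 ± 0.13 (SE). RFC5, a subunit of the clamp loader, gave -0.30 ± 0.11 (SE), while PCNA, the clamp itself, gave -0.20 ± 0.12 (SE). RRM1, the large subunit of ribonucleotide reductase, was at 546 to 598 CPM with DMSO and 457 to 517 CPM with prexasertib, and its -0.21 ± 0.08 (SE) did not pass the test although no libraries overlapped. CDC45 was at 45.5 CPM in prexasertib replicate 2, inside the DMSO range of 45.4 to 48.0 CPM, and at 32.3 to 33.9 CPM in the other three treated libraries.

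Promoters were searched for the short motifs known for genes of G1/S and of G2/M. Windows of 250 bases before to 50 bases after the start site came from RefSeq (GRCh38.p14) and matched 10002 of 12895 tested genes with a symbol. The E2F type was any of TTTCCCGC, TTTCGCGC, TTTGGCGC and TTTGCCGC. The CHR type was TTTGAA or TTCGAA, and both strands were searched. The E2F type was present in 42.9% of the 42 replication windows and 8.33% of the 48 mitosis windows, against 5.01% of all 14682 windows. The CHR type was present in 68.8% of mitosis windows and 7.14% of replication windows, against 11.7% of all. In the 36 windows of the damage list each type was present in 11.1%. CDC6, which fell, and TOP2A, which rose, are shown as 1 example of each class, from position -230 to 20 counted from the start site. Capitals mark the E2F type match in CDC6 (chr17:40287649-40287898, plus strand), which starts at position 8, and the CHR type matches in TOP2A (chr17:40417877-40418126, minus strand), which start at -194 and -151.
CDC6: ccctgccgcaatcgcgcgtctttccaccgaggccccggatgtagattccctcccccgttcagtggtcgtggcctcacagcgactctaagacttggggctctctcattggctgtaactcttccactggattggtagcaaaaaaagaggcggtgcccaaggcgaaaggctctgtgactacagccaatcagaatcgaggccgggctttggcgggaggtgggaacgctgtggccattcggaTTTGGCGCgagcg
TOP2A: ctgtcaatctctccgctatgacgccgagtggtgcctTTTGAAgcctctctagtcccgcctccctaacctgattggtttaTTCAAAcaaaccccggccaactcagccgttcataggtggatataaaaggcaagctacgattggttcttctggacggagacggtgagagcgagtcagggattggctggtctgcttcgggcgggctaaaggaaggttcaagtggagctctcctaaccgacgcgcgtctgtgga
A match of these letters is a description and not a measured site. The windows of FEN1, RRM2 and BRCA1 held none of the E2F type letters.

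Genes of G1/S control and chromatin assembly shared the downward shift, and none of the 24 was called. The list had 20 of 24 negative values and a median of -0.19. An unadjusted p under 0.05 was reached by 6 members, all lower, against 1.98% of all tested genes. CDK2, the kinase partner of cyclin E, came closest. It was at 247, 256, 220 and 248 CPM with DMSO and 207, 215, 175 and 191 CPM with prexasertib, and its adjusted p with the block was 0.0503 at a log2 fold change of -0.31 ± 0.07 (SE). CCNE1, which encodes cyclin E1, gave -0.36 ± 0.17 (SE), SLBP, the histone mRNA binding protein, -0.32 ± 0.11 (SE), and CHAF1A, of the chromatin assembly factor CAF-1, -0.19 ± 0.09 (SE). ATAD2, a chromatin ATPase, gave -0.21 ± 0.09 (SE) with no overlap between groups. ASF1A, a histone chaperone, had a positive value of 0.23 ± 0.15 (SE). The separate list of D-type cyclins, their kinases and inhibitors had a median of -0.04 over 11 tested genes, with 0 at an unadjusted p under 0.05.

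Genes of fork protection, homologous recombination and the Fanconi pathway were also shifted downward, and BRCA1 fell with the block. Of 33 genes, all tested, 32 had negative values, with a median of -0.17. An unadjusted p under 0.05 was reached by 8, all lower, against 1.98% of all tested genes. With the block 1 of 33 was called lower, against 0.0583% of all tested genes. BRCA1, which guides the resection of broken ends (chromosome 17, 43044295 to 43170245, minus strand), was at 237, 230, 263 and 233 CPM with DMSO and 189, 192, 212 and 172 CPM with prexasertib. No libraries overlapped, and its log2 fold change was -0.33 ± 0.07 (SE; adjusted p = 0.0107) with the block. The call was lost without DMSO replicate 3 or 4 or prexasertib replicate 1 or 4 (highest adjusted p 0.115). RAD54L, a motor protein of recombination, gave -0.46 ± 0.16 (SE), EXO1, a resection nuclease, -0.27 ± 0.10 (SE), and FANCD2, a Fanconi core target, -0.23 ± 0.10 (SE). None of those 3 passed the test.

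The ATR and CHK1 checkpoint list was split, with 13 of 24 values negative, a median of -0.02 and none called. The 4 members at an unadjusted p under 0.05 were all lower, a direction and threshold reached by 1.98% of all tested genes. They were CDC25A, the phosphatase that CHK1 marks for degradation (-0.28 ± 0.09, SE), PKMYT1, an inhibitory kinase of CDK1 (-0.30 ± 0.10, SE), CLSPN, the CHK1 adaptor claspin (-0.24 ± 0.09, SE), and TIPIN, of the fork protection complex (-0.32 ± 0.12, SE). HUS1, a subunit of the 9-1-1 clamp, had the highest value of the list, 0.28 ± 0.16 (SE).

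Mitotic genes leaned upward by a small amount, and TOP2A rose with the block. Of 49 genes, all tested, 37 had positive values, with a median of 0.09, and 4 reached an unadjusted p under 0.05 upward and 2 downward. The shares of all tested genes at that threshold were 1.79% upward and 1.98% downward. With the block 1 of 49 was called higher, against 0.109% of all tested genes. The median in pairs 1 to 4 was 0.16, 0.10, 0.06 and 0.00023, so pair 4 did not show the lean. TOP2A, the topoisomerase that untangles chromosomes before they separate, was at 2088, 2149, 2270 and 2256 CPM with DMSO and 2780, 2695, 2572 and 2573 CPM with prexasertib. The groups were well apart, and the log2 fold change was 0.28 ± 0.06 (SE; 1.21-fold; adjusted p = 0.0178) with the block. Its call was lost without DMSO replicate 1 or 2 or prexasertib replicate 1, 2 or 3 (highest adjusted p 0.212).

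The kinesin CENPE (0.23 ± 0.10, SE), cyclin F encoded by CCNF (0.24 ± 0.11, SE) and the spindle factor DLGAP5 (0.24 ± 0.10, SE) were the next highest of the list and were not called. CDC20, the activator of the anaphase-promoting complex, gave 0.22 ± 0.12 (SE). The transcription factors MYBL2 and FOXM1 lay on the other side. MYBL2, which encodes B-MYB, was at 128 to 182 CPM with DMSO and 99.2 to 126 CPM with prexasertib (-0.47 ± 0.14, SE; adjusted p 0.342 with the block). FOXM1 gave -0.25 ± 0.11 (SE).

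**Figure D3:**
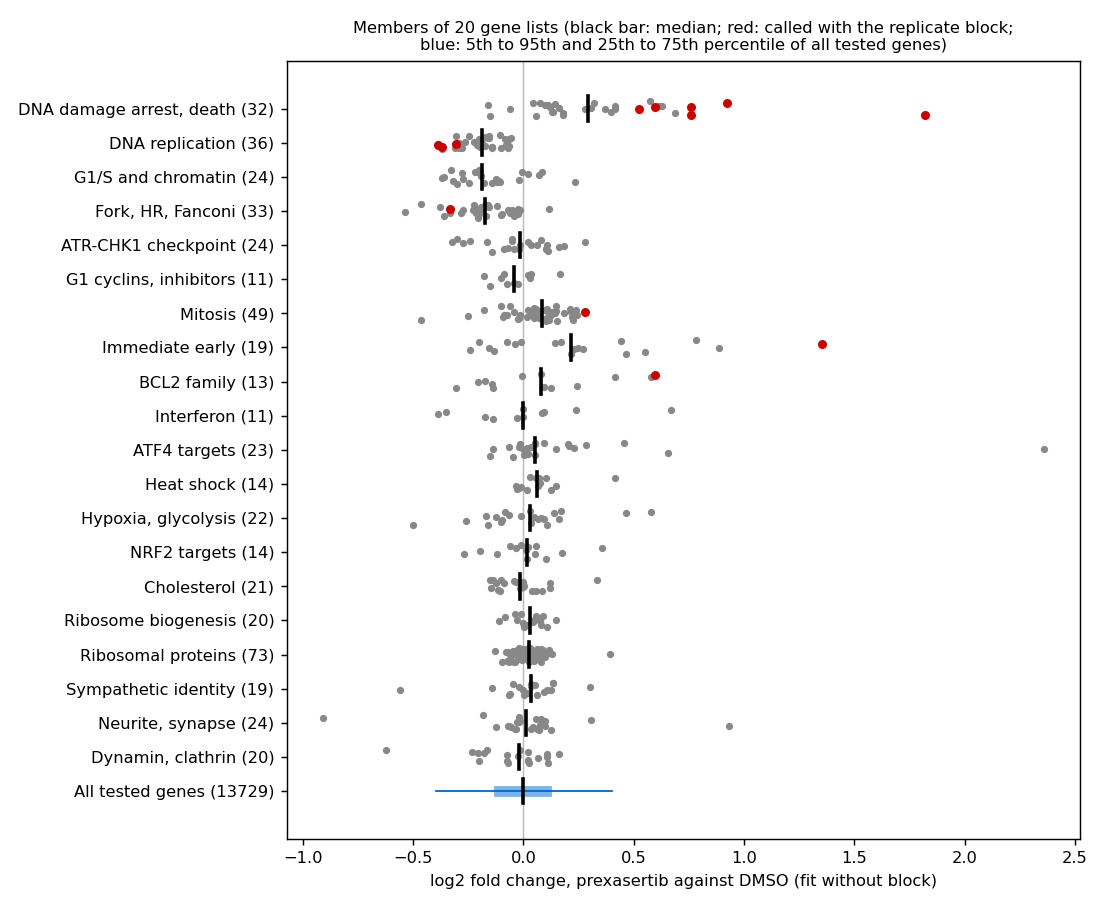
Log2 fold changes without the block (horizontal axis) of the tested members of 20 gene lists, with the number tested in brackets; grey points are genes, red points are genes called with the block, black bars are medians, and the blue bars show the 5th to 95th and 25th to 75th percentiles of all 13729 tested genes. The damage list has a median of 0.29, the replication, G1/S and fork lists lie at -0.19, -0.19 and -0.17, and the median of all genes is -0.00078.

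EGR1, an immediate early transcription factor induced by growth signals and stress, rose with the block and was among the 2 most stable calls. It was at 4.57, 5.01, 3.63 and 2.72 CPM with DMSO and 9.62, 13.4, 9.11 and 7.99 CPM with prexasertib, with no overlap. The log2 fold change was 1.34 ± 0.24 (SE; 2.54-fold; adjusted p = 0.00188) with the block and 1.35 ± 0.25 (SE; adjusted p = 0.0506) without it. The call held in the blocked fit without any of the 8 libraries (highest adjusted p 0.0354). Of 25 immediate early genes 19 were tested, 12 with positive values and a median of 0.22. EGR1 was the only one called, against 0.109% of all tested genes called higher with the block. IER3, IER5 and ATF3 gave 0.44 ± 0.16, 0.25 ± 0.11 and 0.47 ± 0.20 (SE). The list's median ranged from -0.00069 in pair 4 to 0.20 in pair 1. ATF3 was at 15.3 and 14.9 CPM in prexasertib replicates 1 and 2 and at 8.91 and 8.30 CPM in replicates 3 and 4, against 7.61 to 9.28 CPM with DMSO.

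The other calls with the block were spread over unrelated roles. TOB1, an antiproliferative protein that recruits the deadenylation machinery, was at 20.6 to 24.0 CPM with DMSO and 31.1 to 40.6 CPM with prexasertib (log2 fold change 0.60 ± 0.12, SE; adjusted p = 0.00730). TGIF1, a repressor of TGF-beta signalling, was at 3.68 to 4.51 CPM with DMSO and 5.797 to 11.4 CPM with prexasertib (1.16 ± 0.28, SE; adjusted p = 0.0444). ARL6IP1, which shapes the endoplasmic reticulum, was at 135 to 169 CPM with DMSO and 170 to 227 CPM with prexasertib (0.33 ± 0.08, SE; adjusted p = 0.0321). These 3 genes had no overlap between the groups.

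Among the 8 genes that fell, 4 were outside replication and recombination. SLC2A4RG, a zinc finger regulator of the glucose transporter gene SLC2A4, was at 42.7 to 57.4 CPM with DMSO and 30.9 to 41.9 CPM with prexasertib (-0.51 ± 0.10, SE; adjusted p = 0.00989). GGCT, an enzyme of glutathione breakdown, was at 112 to 128 CPM with DMSO and 80.6 to 107 CPM with prexasertib (-0.38 ± 0.08, SE; adjusted p = 0.0162). SEMA5A, an axon guidance semaphorin, was at 13.3 to 18.6 CPM with DMSO and 6.27 to 11.2 CPM with prexasertib (-0.76 ± 0.18, SE; adjusted p = 0.0377). PRRT2, a presynaptic protein, was at 25.8 to 47.8 CPM with DMSO and 20.5 to 29.7 CPM with prexasertib (-0.54 ± 0.13, SE; adjusted p = 0.0444). Of these 4, PRRT2 was the only one whose groups overlapped.

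Single libraries mattered for all 7 of these genes. TOB1 lost its call without DMSO replicate 4 or prexasertib replicate 1 or 3 (highest adjusted p 0.104), and SLC2A4RG without DMSO replicate 1 or prexasertib replicate 1 or 4 (highest 0.162). ARL6IP1 kept its call without DMSO replicate 3 or prexasertib replicate 4 (highest 0.399 without another library), and GGCT without DMSO replicate 2 or prexasertib replicate 4 (highest 0.190). TGIF1 and PRRT2 kept theirs without prexasertib replicate 4 alone (highest 0.302 and 0.436), and SEMA5A without DMSO replicate 3 alone (highest 0.171). Another tool with the block also ended 4 of these calls. TGIF1 lost its call with DESeq2 (adjusted p = 0.0685) and limma-voom (0.235), PRRT2 and ARL6IP1 with DESeq2 (0.0823 and 0.0511), and SEMA5A with limma-voom (0.0632).

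For 4 further calls the reads may come from near-identical copies, so their identity is uncertain. H2AC6, a replication-dependent histone gene, was at 5.90 to 9.28 CPM with DMSO and 10.7 to 16.1 CPM with prexasertib (0.79 ± 0.19, SE; adjusted p = 0.0444). RNU4-82P, a pseudogene of the U4 spliceosomal RNA, was at 1.76 to 4.002 CPM with DMSO and 5.22 to 9.71 CPM with prexasertib (1.36 ± 0.26, SE; adjusted p = 0.00527). ENSG00000255823, named MTRNR2L8 in GENCODE 29 and similar to mitochondrial ribosomal RNA, was at 10.5 to 16.2 CPM with DMSO and 19.4 to 24.6 CPM with prexasertib (0.72 ± 0.15, SE; adjusted p = 0.0151). RPL24P6, a pseudogene of the ribosomal protein gene RPL24, was at 182 to 251 CPM with DMSO and 244 to 278 CPM with prexasertib (0.30 ± 0.07, SE; adjusted p = 0.0444), with overlapping groups, while RPL24 gave 0.07 ± 0.11 (SE). RNU4-82P lost its call without DMSO replicate 3 alone (adjusted p = 0.0589). ENSG00000255823 lost it without DMSO replicate 1, 3 or 4 or prexasertib replicate 1 or 2 (highest 0.201). H2AC6 kept it without DMSO replicate 2 alone (highest 0.297), and RPL24P6 without prexasertib replicate 4 alone (highest 0.527). With the block, limma-voom also ended the call of H2AC6 (adjusted p = 0.0804), and library sizes alone, DESeq2 and limma-voom ended that of RPL24P6 (0.0604, 0.0806 and 0.0835).

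Other programmes stayed close to the median of all genes. Lists of ATF4 targets, heat shock genes, hypoxia and glycolysis genes, NRF2 targets, cholesterol synthesis, ribosome biogenesis, ribosomal proteins, interferon response, sympathetic identity, neurite and synapse genes, and dynamin and clathrin genes had medians between -0.02 and 0.06, and 0 of their members were called with the block. The interferon median is poorly fixed, with 11 of 27 genes tested. It was -0.35, -0.013, -0.12 and -0.091 in pairs 1 to 4, and ran from -0.27 to 0.15 over 34 alternatives. HSPA1B, an inducible heat shock protein that shares most of its sequence with HSPA1A, had the smallest p among the heat shock genes, at 55.4 to 78.2 CPM with DMSO and 65.0 to 108 CPM with prexasertib (0.42 ± 0.13, SE; adjusted p 0.146 with the block). STC2, a secreted target of ATF4, had 0 counts in DMSO replicates 2 and 3, 0.761 and 0.160 CPM in replicates 1 and 4, and 2.05, 1.68, 0.792 and 0.940 CPM with prexasertib. The DMSO libraries were thus near or below the level of 3 counts.

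**Figure D4:**
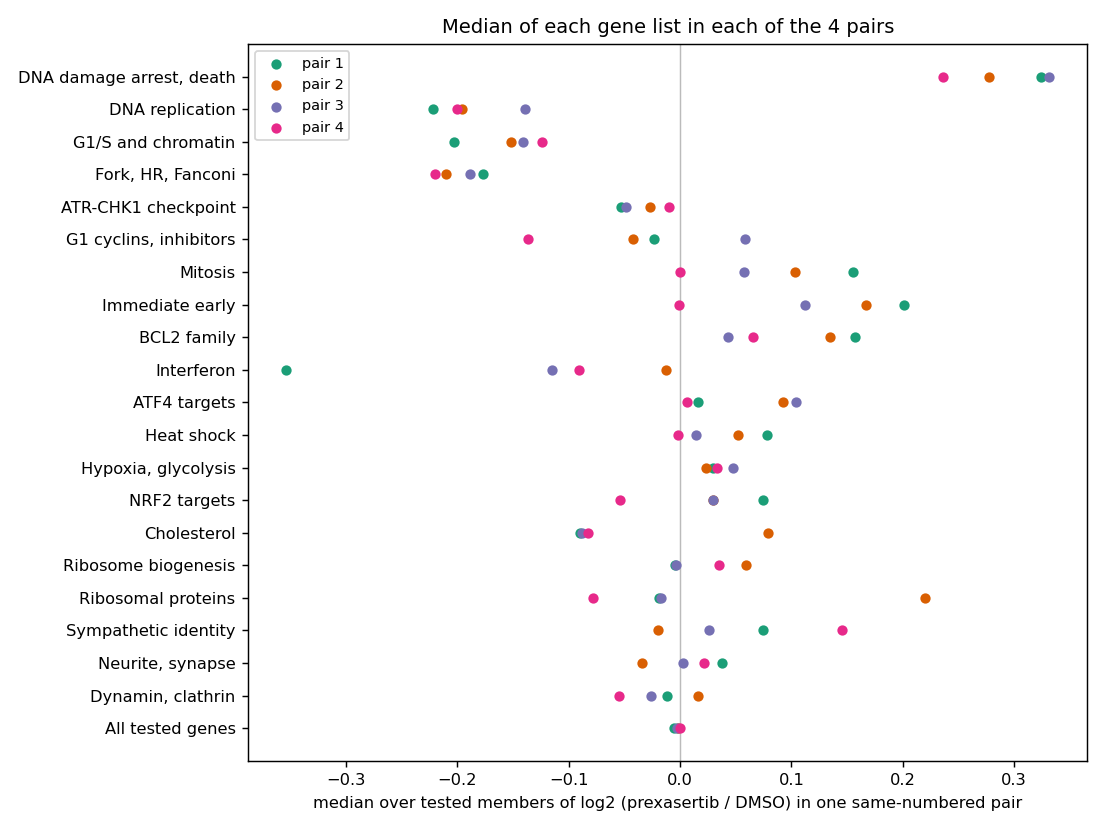
Median over tested members of the log2 ratio of prexasertib to DMSO in each same-numbered pair (horizontal axis), for the same 20 lists and for all tested genes; each colour is 1 of the 4 pairs. The damage list lies between 0.24 and 0.33 in the 4 pairs, the replication list between -0.22 and -0.14, and the mitosis list between 0.00023 and 0.16.

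The first principal component set apart 2 replicate sets, whose values are given here as a description. With replicates 1 and 3 only, the test without the block called 5 genes, and with replicates 2 and 4 only it called 0, and all 23 genes called with the block had the same sign in both sets. The 23 were called on these same libraries, so their shared sign is no independent support. CDKN1A had a log2 fold change of 0.92 in replicates 1 and 3 and 0.63 in replicates 2 and 4. RPS27L gave 0.59 and 0.47, FEN1 gave -0.46 and -0.32, and EGR1 gave 1.19 and 1.52. The sizes differed more for some death and arrest genes. BBC3 had 0.91 and 0.34, PHLDA3 1.01 and 0.56, PLK2 1.21 and 0.68, and PURPL 2.37 and 1.29, each larger in replicates 1 and 3. The difference between the sets was not tested. The damage list's median was 0.29 and 0.31, the replication list's -0.19 and -0.22.

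The order of levels over the 5 groups shows where 2 nM prexasertib stood in the series. CDKN1A was at 54.0 ± 12.4 CPM (SD, n = 4) with DMSO, 91.7 ± 10.8 with prexasertib, 123 ± 37.2 with 1 µM Dyngo-4a, 171 ± 26.3 with 2.26 µM Dyngo-4a and 425 ± 29.3 with the combination. CDKN1A was lower with prexasertib than with low-dose Dyngo-4a in 4 of 4 same-numbered pairs, but the difference did not pass the test (log2 difference -0.42 ± 0.18, SE; adjusted p = 0.463, and 0.0894 with the block). RPS27L was at 315 ± 32.3, 453 ± 29.8, 463 ± 50.3, 449 ± 64.8 and 947 ± 76.2 CPM (SD, n = 4) in the same order, so the 3 single treatments lay within their spread of each other. PLK2 was at 5.57 ± 1.50, 10.5 ± 1.60, 9.30 ± 1.91, 19.96 ± 4.22 and 49.3 ± 5.39 CPM (SD, n = 4). TOP2A was at 2191 ± 87.3, 2655 ± 102, 2173 ± 123, 2469 ± 142 and 3923 ± 272 CPM (SD, n = 4). BRCA1 was at 241 ± 14.8, 191 ± 16.4, 241 ± 28.1, 212 ± 14.9 and 192 ± 8.83 CPM (SD, n = 4), with prexasertib and the combination the lowest.

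**Figure D5:**
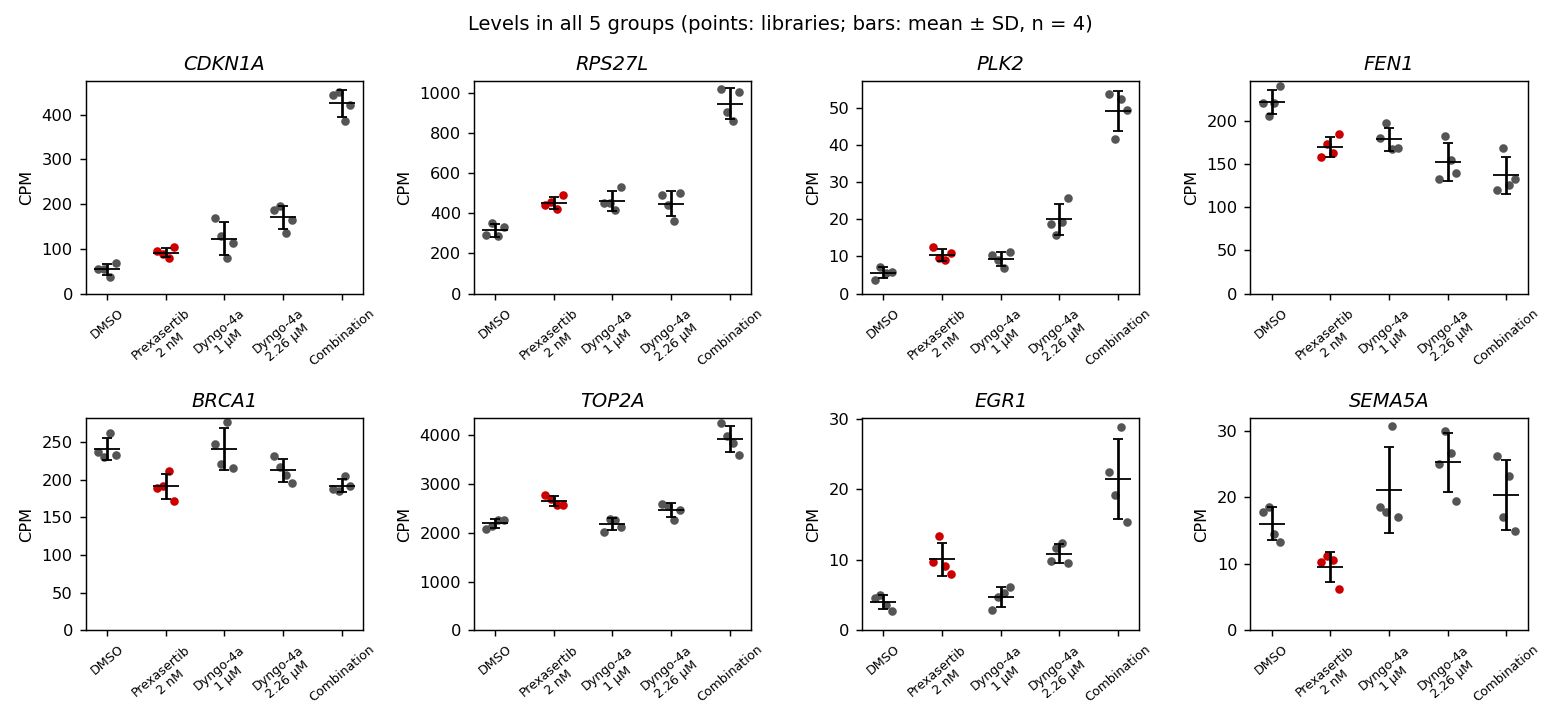
Levels in CPM (vertical axes, starting at 0) of 8 genes in all 5 groups of 4 libraries; points are libraries, prexasertib in red, and bars are the mean ± SD with n = 4. Prexasertib has the lowest mean of the 5 groups for SEMA5A and, by a margin within the spread, for BRCA1, while CDKN1A, RPS27L, PLK2, TOP2A and EGR1 are highest in the combination.

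Set directly against 1 µM Dyngo-4a, prexasertib differed in 57 genes without the block (0.415% of those tested), 21 of them higher with prexasertib (0.153%) and 36 lower (0.262%), and in 381 with the block (2.78%). The doses were chosen by the study and differ in kind, so the test compares these 2 treatments as given. The number without the block fell to 31, 28 and 36 without Dyngo-4a replicates 1, 3 and 4, and to 28, 36 and 24 without prexasertib replicates 1, 2 and 3. Both treatments share the DMSO libraries. For genes with a printed log2 difference from Dyngo-4a, the value of prexasertib against DMSO is therefore given here or above. No overlap between the 2 treatments' changes against DMSO is computed.

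Of 22 tested hypoxia and glycolysis genes 7 were called lower with prexasertib than with Dyngo-4a, against 0.262% of all tested genes. The list's median was -0.28 against -0.0069 for all tested genes. The 7 were ALDOC, TPI1, PGK1, ENO1 and LDHA of glycolysis, PDK1, a kinase that inhibits pyruvate dehydrogenase, and P4HA1, a collagen prolyl hydroxylase. PGK1 and LDHA gave log2 differences of -0.61 ± 0.11 (SE; adjusted p = 0.00265) and -0.60 ± 0.11 (SE; adjusted p = 0.00342), and their values for prexasertib against DMSO were 0.11 and 0.03. Outside that list, FAM162A, a hypoxia-inducible mitochondrial protein, was at 25.3 ± 6.99 CPM (SD, n = 4) with prexasertib and 63.4 ± 8.34 with low-dose Dyngo-4a, against 30.4 ± 7.26 with DMSO (log2 difference -1.32 ± 0.15, SE; adjusted p = 5.68e-06). TXNIP, an inhibitor of thioredoxin and of glucose uptake, gave -0.77 ± 0.10 (SE; adjusted p = 3.42e-05) and -0.09 against DMSO. None of PGK1, LDHA, FAM162A and TXNIP passed the test for prexasertib against DMSO. In the damage list the 1 call was DDB2, lower with prexasertib than with Dyngo-4a (-0.75; adjusted p = 0.00743). In that direction 0.262% of all tested genes were called.

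Of the 23 genes called with the block for prexasertib against DMSO, SEMA5A and EGR1 were also called against Dyngo-4a without the block. Both contrasts use the same prexasertib libraries, so a call in both is no independent support. With the block in both, TOP2A, BRCA1, SLC2A4RG (adjusted p = 0.0164) and RRM2 (adjusted p = 0.0419) were called as well. SEMA5A was at 9.54 ± 2.22 CPM (SD, n = 4) with prexasertib, 16.01 ± 2.52 with DMSO and 21.0 ± 6.47 with low-dose Dyngo-4a, with a log2 difference from Dyngo-4a of -1.14 ± 0.21 (SE; adjusted p = 0.00404). EGR1 was at 10.0 ± 2.35 CPM with prexasertib, 3.98 ± 1.02 with DMSO and 4.74 ± 1.42 with low-dose Dyngo-4a (SD, n = 4), with a log2 difference of 1.07 ± 0.24 (SE; adjusted p = 0.0321). The EGR1 call was lost without Dyngo-4a replicate 1, 2 or 3 or prexasertib replicate 1, 2 or 3 (highest adjusted p 0.210). ADAMTSL1, an extracellular matrix protein, and CCDC15, a coiled-coil protein, gave -1.09 ± 0.19 (SE; adjusted p = 0.00265) and -1.07 ± 0.22 (SE; adjusted p = 0.00855), and CCDC15 lost its call without Dyngo-4a replicate 3 or prexasertib replicate 3 (highest 0.0825). For prexasertib against DMSO, ADAMTSL1 and CCDC15 gave -0.57 and -0.54.

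The antioxidant genes HMOX1 and GCLM were higher with prexasertib than with Dyngo-4a. HMOX1, heme oxygenase 1, was at 14.3 ± 3.03 CPM with prexasertib, 11.2 ± 1.27 with DMSO and 4.32 ± 1.27 with low-dose Dyngo-4a (SD, n = 4; log2 difference 1.69 ± 0.25, SE; adjusted p = 0.000247). GCLM, of glutathione synthesis, gave 1.02 ± 0.11 (SE; adjusted p = 6.06e-07) against Dyngo-4a and 0.01 against DMSO. HSPA1B gave 0.75 ± 0.13 (SE; adjusted p = 0.00265). H4C11, a histone gene with near-identical copies, gave 1.17 ± 0.26 (SE; adjusted p = 0.0274), and lost its call without Dyngo-4a replicate 1 or 3 or prexasertib replicate 1, 3 or 4 (highest 0.135). Its value for prexasertib against DMSO was 0.63.

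Of 49 mitotic genes 2 were called higher with prexasertib than with Dyngo-4a, against 0.153% of all tested genes. The list's median was 0.19. CDC20 gave 0.55 ± 0.12 (SE; adjusted p = 0.0158) and PLK1, the main mitotic polo-like kinase, gave 0.38 ± 0.09 (SE; adjusted p = 0.0383). For prexasertib against DMSO, PLK1 gave 0.13. CDC20 lost its call without Dyngo-4a replicate 1 or prexasertib replicate 2 or 3 (highest 0.109), and PLK1 lost it whichever of the 8 libraries was left out (0.0505 to 0.193). TOP2A differed by 0.29 ± 0.08 (SE; adjusted p = 0.141 without the block and 0.00156 with it). BRCA1 differed by -0.33 ± 0.09 (SE; adjusted p = 0.103 without the block and 0.00152 with it). FEN1, at 170 ± 11.8 CPM with prexasertib and 179 ± 13.8 with low-dose Dyngo-4a (SD, n = 4), differed by -0.07 ± 0.10 (SE; adjusted p = 0.887).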

How the data were processed

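Gene expression was read by QuantSeq 3′ mRNA sequencing with molecular identifiers. The deposited table holds raw counts per gene, made by the authors, with no normalization. Per the submitters' processing notes, FastQC 0.11.7, STAR 2.7.2b, edgeR 3.36.0, limma 3.50.3 and the build GRCh38 were used. The counting tool, annotation, strand setting and collapsing of identifiers were not given in the sources used here. Without strand, reads of overlapping genes cannot be told apart.

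Symbols and coordinates came from GENCODE 29, which positioned 58515 of 58787 gene IDs. With R 4.3.3 and edgeR 4.0.16, genes were filtered by filterByExpr (minimum count 10, minimum total 15), scaled by TMM and tested by the robust quasi-likelihood test over all 20 libraries, with Benjamini-Hochberg adjustment over 13729 genes. CPM values are TMM-scaled. Mean log2 CPM values and the log2 ratios of same-numbered pairs carry a prior count of 2. Log2 fold changes of the edgeR fits carry only edgeR's default prior count. The fit had 15 residual degrees of freedom and a common biological coefficient of variation of 12.5%, against 12 and 8.78% once replicate number was added as a block. The replicate numbers come from the sample titles, and each prexasertib library correlated best with the DMSO library of its own number (4 of 4; r with other numbers of -0.209 to 0.143). Alternatives used limma 3.58.1 and DESeq2 1.42.0, other scalings and filters, and left-out libraries. The procedure was tested on simulated data, and the outcome is not reported here.

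Named genes were the 8 with the smallest p in each direction, the 8 largest rises and falls called with the block (both limited to genes averaging 3 or more in log2 CPM), up to 4 of smallest p per list, and CHEK1, MUS81, EME1, MYCN and CDKN1A. For the contrast with Dyngo-4a they were the 4 largest calls in each direction under the same limit on log2 CPM. Other genes, among them the remaining calls with the block, were named after their values were seen. The comparison, gene lists and genes were chosen with earlier results of these data known. Some genes are not reported here, and mitochondrially encoded genes were not analysed here.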

Additional observations from a re-analysis of the deposited data

Results flagged for a closer look

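In 140 groups of 4 libraries (70 named genes, DMSO and prexasertib) the library farthest from the others was compared with Dixon's critical value for 4 samples, which chance passes in about 1 of 20 groups, and 3 stood apart. PHLDA3 was at 14.6 CPM in DMSO replicate 4 and at 7.61 to 8.27 CPM in the other DMSO libraries. CDC45 was at 45.5 CPM in prexasertib replicate 2 and at 32.3 to 33.9 CPM in the other prexasertib libraries. CHAF1A was at 151 CPM in prexasertib replicate 3 and at 122 to 126 CPM in the other prexasertib libraries.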

How the results depend on the processing

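The number of genes called for prexasertib against DMSO depended on the fit. From 0 without the replicate block, it became 12 with no low-count filter, 6 with DESeq2, 2 with the compared groups only, 5 with replicates 1 and 3 only and 4 with a term for replicates 1 and 3 against 2 and 4. It stayed at 0 with library sizes alone, relative log size factors, 1 CPM in 4 libraries, limma-voom and replicates 2 and 4 only. With the replicate block it was 23, and 23 with library sizes alone, 23 with relative log size factors, 31 with no filter, 24 with 1 CPM in 4 libraries, 20 with DESeq2, 21 with limma-voom and 86 with the compared groups only. Leaving out 1 library gave 0 to 2 without the block (2, 1 and 2 without DMSO replicates 2 and 4 and prexasertib replicate 4) and 4 to 21 with it (6, 18, 9 and 9 without DMSO replicates 1 to 4, and 4, 8, 13 and 21 without prexasertib replicates 1 to 4). Prexasertib against 1 µM Dyngo-4a gave 57 calls, and 96 with no filter, 112 with DESeq2, 86 with the compared groups only, 381 with the replicate block and 24 to 44 without 1 library. The causes were not tested. In 16 cases a gene with a value near 0 changed sign. Without 1 library and without the block, CHEK1 ran from -0.090 to 0.059, MUS81 from -0.088 to 0.057 and GINS2 from -0.14 to 0.020. With the replicate block CHEK1 became 0.087, 0.018 and 0.077 without DMSO replicates 1 and 3 and prexasertib replicate 4, MUS81 0.083 and 0.019 without DMSO replicate 1 and prexasertib replicate 2, and GINS2 0.0055 without DMSO replicate 1. MUS81 became 0.0062 in replicates 1 and 3, and GINS2 0.11 and CHEK1 0.12 in replicates 2 and 4. The damage list's median was 0.21 to 0.32 over 34 alternatives, and the replication list's -0.22 to -0.16. Depth limits genes near 0.459 to 0.757 CPM, the level of 3 counts.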

Other observations

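Replication-dependent histone genes, a family chosen after its values were seen, also leaned upward with prexasertib. Of 43 tested, 37 had a positive log2 fold change, with a median of 0.39 against -0.00078 for all tested genes. An unadjusted p under 0.05 was reached by 9, all higher, against 1.79% of all tested genes. H2AC6 was the 1 member called with the block, against 0.109% of all tested genes called higher. The median was 0.50, 0.20, 0.38 and 0.33 in same-numbered pairs 1 to 4, and 0.53 against 1 µM Dyngo-4a. These genes have near-identical copies, and most of their transcripts lack the poly(A) tail that the library method primes on, so single members are uncertain. The low-count filter could also be passed through the Dyngo-4a or combination libraries. The 37 of 43 and the median thus include members near the level of 3 counts with DMSO. H2BC26 was at 0.617 CPM with DMSO, 0.845 with prexasertib and 9.09 with the combination. H2BC18, 1 of the 9 at an unadjusted p under 0.05, was at 0.772, 1.73 and 5.01 CPM in the same order. Small nuclear RNA genes, also chosen after their values were seen, were positive in 28 of 50 with a median of 0.07. RNU4-82P was the 1 called with the block, against the same share of all tested genes.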
